A study of Homo sapiens with 6 samples.

Results

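The 7 genes described here are TXNIP, ARRDC1, ARRDC2, ARRDC3, ARRDC4, MLXIP and MLXIPL, found by their symbols among the 23355 gene symbols of a table of read counts from HFL-1 cells. HFL-1 is an established line of fibroblasts from human fetal lung, and every library came from this 1 line. The cells were transfected with Lipofectamine RNAiMAX and either a non-targeting control siRNA (siNTC) or 1 of 2 siRNAs against TAZ, the coactivator encoded by WWTR1 (siTAZ #1 and siTAZ #2). Total RNA was taken 48 h later, and each of the 3 groups had 2 libraries, described as biological replicates. The study states that the siRNAs against TAZ were transfected in duplicate, but says no more on separate cultures. The spread between the 2 libraries of a group may therefore be partly technical. The set of genes was chosen by its measured values in these same libraries: TXNIP is on the study's list of genes lowered by both siRNAs, and its relatives and regulators were added with their values known. The levels, fold changes and calls of the 7 genes are therefore a description and support nothing by themselves.

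TXNIP and the ARRDC proteins are alpha-arrestins. TXNIP binds thioredoxin and lowers glucose uptake by removing the transporters encoded by SLC2A1 and SLC2A4 from the cell surface, while several ARRDC proteins bring WW domain ubiquitin ligases of the NEDD4 family to membrane proteins that are to be sorted. MondoA, encoded by MLXIP, and its relative ChREBP, encoded by MLXIPL, pair with MLX, respond to glucose 6-phosphate, and bind carbohydrate response elements in genes such as TXNIP and ARRDC4.

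The libraries held 15648055 to 32078188 counts on gene symbols. Levels are CPM, a gene's counts scaled by TMM to libraries of one size, and fold changes come from edgeR's quasi-likelihood test in 1 fit of the 6 libraries, with the false discovery rate (FDR) taken over the 14053 genes that passed the filter on low counts. In siTAZ #1 replicate 2, the last part of the genome, starting at RANGAP1 on chromosome 22 and running through X and Y, took 0.246% of the counts, against 3.58% to 3.74% in the other libraries. None of the 7 genes lies there, but the 575 tested genes of that part were kept in the fit. The FDR of other genes can therefore depend on them, and calls made without them are given below. WWTR1 had 132 and 131 CPM in the siNTC libraries, 26.4 and 28.4 with siTAZ #1, and 46.1 and 43.1 with siTAZ #2, and thus fell with both siRNAs. Its log2 fold change was −2.26 ± 0.10 (SE, n = 2 per group) with siTAZ #1 and −1.56 ± 0.10 with siTAZ #2, at an edgeR FDR of 0.00062 and 0.00068. All 9 fibroblast markers were detected in every library, with a summed level of 23174 to 34966 CPM that was lower in all 4 siTAZ libraries. Most of this sum came from COL1A2, COL1A1, COL3A1 and VIM, and single markers went both ways. PDGFRA had a mean of 424 CPM in siNTC, 1397 with siTAZ #1 and 508 with siTAZ #2, and PDGFRB had 250, 327 and 365. COL1A1 had 9308, 5653 and 10680 CPM in the same order, THY1 had 446, 433 and 629, and DCN had 735, 464 and 243. The 6 epithelial markers summed to 0.774 to 3.09 CPM and the 4 endothelial markers to 0.888 to 3.50 CPM. The 4 leukocyte markers summed to 38.0 to 75.6 CPM, nearly all of it CD68, while PTPRC, CD3E and ITGAM stayed at or near 0. The part of the markers in the other results was not tested.

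TXNIP, on chromosome 1 of GRCh37 from 145438490 to 145442635 on the plus strand, had 3645 and 3698 counts in the siNTC libraries, 169 and 345 with siTAZ #1, and 374 and 361 with siTAZ #2. These were 231 and 233 CPM in siNTC, 10.9 and 10.6 CPM with siTAZ #1, and 17.5 and 21.8 CPM with siTAZ #2. The 3 groups did not overlap, the order being siNTC, then siTAZ #2, then siTAZ #1, and the siNTC libraries lay close together. The mean level was 4.63% of siNTC with siTAZ #1 and 8.46% with siTAZ #2, that is, 21.6-fold and 11.8-fold lower. On the log2 scale the difference from siNTC was −4.43 ± 0.14 (SE, n = 2 per group) and −3.56 ± 0.13. Only 1 of the 14053 genes had a lower log2 fold change with siTAZ #1, and TXNIP was in place 15 from the lowest with siTAZ #2. In these bulk libraries, less transcript per cell and fewer cells with the transcript cannot be told apart.

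The promoters of TXNIP and ARRDC4 are shown because these 2 genes had the lowest fold changes of the set with siTAZ #1 and because both are known MondoA targets. The sequences are the 250 bases before a RefSeq start of transcription, from a table on GRCh38.p14. Each matched GRCh37 exactly and at 1 place only: TXNIP at chr1:145438240-145438489 and ARRDC4 at chr15:98503683-98503932, both on the plus strand. Capitals mark CACGNG on either strand and, in TXNIP, also the 5 bases between a pair of them.
TXNIP: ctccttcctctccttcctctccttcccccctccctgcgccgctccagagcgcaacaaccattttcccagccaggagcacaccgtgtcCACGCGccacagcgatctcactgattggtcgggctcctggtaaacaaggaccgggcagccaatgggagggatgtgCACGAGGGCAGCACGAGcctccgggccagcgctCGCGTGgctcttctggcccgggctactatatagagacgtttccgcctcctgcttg
ARRDC4: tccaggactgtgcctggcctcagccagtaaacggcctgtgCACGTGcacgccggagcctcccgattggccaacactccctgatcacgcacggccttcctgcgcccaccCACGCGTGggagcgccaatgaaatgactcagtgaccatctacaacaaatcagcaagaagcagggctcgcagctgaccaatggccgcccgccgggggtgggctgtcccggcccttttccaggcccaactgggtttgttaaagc
The TXNIP window shown held CACGNG 2 times on its own strand with 5 bases between, from 88 to 72 bases before the start. A second RefSeq window of TXNIP, at chr1:145439075-145439324, held 0 matches of CACGNG on either strand. The paired arrangement, which resembles a carbohydrate response element, was searched only as CACGNG repeated on the same strand after 5 bases. This form was found in 16 of 35116 promoter windows of this length, or 0.0456%. Other forms of the element were not searched. CACGNG at any place on either strand was found in 26.7% of the windows. The windows shown of TXNIP and ARRDC4 each held 4 matches of it, overlapping ones counted. In ARRDC4, 2 of these were the palindrome CACGTG read on each strand, 210 to 205 bases before the start. CACGTG was in 6.34% of the windows and in no other of the 10 windows of the 7 genes. GGAATG, the core letters of a TEAD site, was in 11.9% of all windows and in none of the 10. These are matches of letters and not measured sites.

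Of the 16 genes with the paired arrangement, 11 besides TXNIP were tested. With siTAZ #1, 2 of them fell and 1 rose, beside 9.78% and 10.8% of all genes tested. With siTAZ #2, 2 fell and 2 rose, beside 14.4% and 14.1%. The medians were −0.11 and −0.05 on the log2 scale, beside 0.02 and 0.01 for all genes tested. Nothing particular to the arrangement is read from these counts. The lowest log2 fold changes of the 11 genes were −1.20 for KCTD5 with siTAZ #1 and −0.49 for RAN with siTAZ #2. By edgeR, KCTD5 was not called without siNTC replicate 1 or 2 (FDR 0.054 and 0.057), nor RAN without siNTC replicate 1 or 2 (0.051 and 0.16) or siTAZ #2 replicate 1 or 2 (0.080 and 0.14).

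ARRDC1, on chromosome 9 from 140500137 to 140509812, encodes an alpha-arrestin that takes part in the release of vesicles from the plasma membrane. It had 57 and 145 counts in siNTC, 152 and 343 with siTAZ #1, and 231 and 211 with siTAZ #2, or 3.61 and 9.15 CPM, 9.81 and 10.5 CPM, and 10.8 and 12.7 CPM. All 4 siTAZ libraries lay above both siNTC libraries, but the siNTC libraries stood further apart from each other than siNTC replicate 2 stood from any siTAZ library. The log2 difference from siNTC was 0.67 ± 0.42 with siTAZ #1 and 0.88 ± 0.42 with siTAZ #2, and siTAZ #1 and siTAZ #2 differed by −0.21 ± 0.41, within the error. ARRDC1 overlaps C9orf37 (ARRDC1-AS1), on the other strand, and a further annotated gene, ENSG00000283411. The strand setting of the counting is not given in the sources used here.

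ARRDC2, on chromosome 19 from 18111941 to 18124911, had 13.9 and 7.07 CPM in siNTC, 19.5 and 13.2 with siTAZ #1, and 5.19 and 8.76 with siTAZ #2. The siNTC libraries overlapped with those of both siRNAs, while the siTAZ #1 libraries lay above the siTAZ #2 libraries. The log2 difference from siNTC was 0.64 ± 0.42 with siTAZ #1 and −0.59 ± 0.43 with siTAZ #2, and siTAZ #1 minus siTAZ #2 was 1.23 ± 0.43.

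ARRDC3, on chromosome 5 from 90664448 to 90679134 on the minus strand, is known for the sorting of integrin beta-4. It had 993 and 1049 counts in siNTC, 798 and 1505 with siTAZ #1, and 1242 and 770 with siTAZ #2. The levels were 63.0 and 66.2 CPM, 51.5 and 46.2 CPM, and 58.1 and 46.5 CPM. The siTAZ libraries were all below the siNTC libraries, and those of the siRNAs overlapped with each other. The log2 difference from siNTC was −0.40 ± 0.14 with siTAZ #1 and −0.30 ± 0.14 with siTAZ #2, so that ARRDC3 kept 75.6% and 81.0% of its siNTC level. An antisense gene, ARRDC3-AS1, is annotated over it, and its reads cannot be told apart where the counting ignored the strand.

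ARRDC4, on chromosome 15 from 98503933 to 98517063 on the plus strand, is the alpha-arrestin closest to TXNIP in its known response to glucose. It had 322 and 329 counts in siNTC, 50 and 183 with siTAZ #1, and 389 and 154 with siTAZ #2. The levels were 20.4 and 20.8 CPM in siNTC, 3.23 and 5.61 CPM with siTAZ #1, and 18.2 and 9.30 CPM with siTAZ #2. The groups did not overlap, in the order siNTC, siTAZ #2, siTAZ #1, but the siTAZ #2 libraries were far apart. Replicate 1 was near the siNTC level, and replicate 2 lay between the levels of siNTC and siTAZ #1. The log2 difference from siNTC was −2.20 ± 0.41 with siTAZ #1 (21.5% of the siNTC level) and −0.58 ± 0.39 with siTAZ #2 (66.7%). The siRNAs differed by −1.62 ± 0.40, and by −1.06 when siTAZ #2 replicate 1 was left out. Like TXNIP, ARRDC4 was lower with siTAZ #1 than with siTAZ #2, while for TXNIP the difference between the siRNAs was −0.87 ± 0.12.

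MLXIP, on chromosome 12 from 122516628 to 122631894 on the plus strand, had 1119 and 1466 counts in siNTC, 992 and 1866 with siTAZ #1, and 2168 and 1866 with siTAZ #2. The levels were 70.9 and 92.5 CPM, 64.0 and 57.2 CPM, and 101 and 113 CPM. Thus the siTAZ #1 libraries were below and the siTAZ #2 libraries above siNTC, without overlap, although the siNTC libraries also lay apart from each other. The log2 difference from siNTC was −0.43 ± 0.15 with siTAZ #1 and 0.39 ± 0.15 with siTAZ #2, and siTAZ #1 minus siTAZ #2 was −0.82 ± 0.15. MLXIPL, on chromosome 7 from 73007524 to 73038873 on the minus strand, had 3 and 4 counts in siNTC, 5 and 13 with siTAZ #1, and 5 and 8 with siTAZ #2. It did not pass the filter on low counts and has no fold change here.

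**Figure D1:**
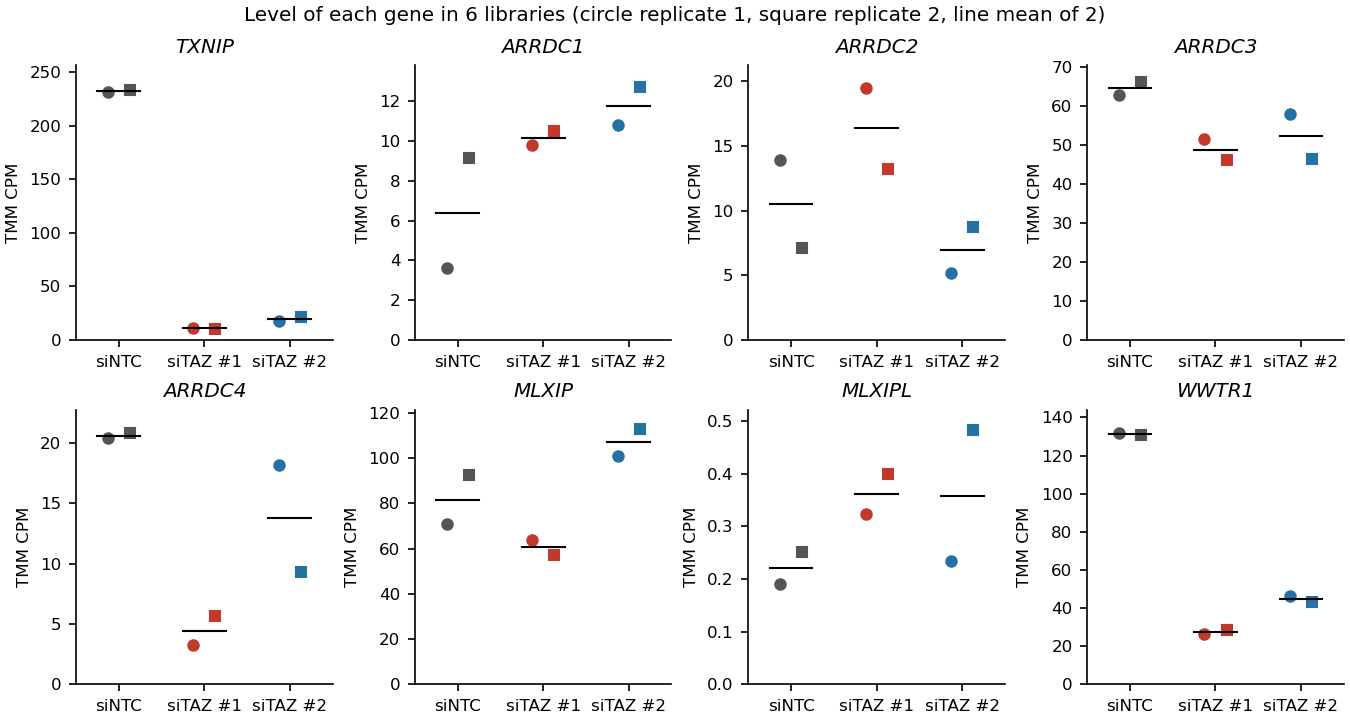
TMM CPM (y axis, linear from 0, own scale in each panel) of the 7 genes and WWTR1 in the 6 libraries, by group on the x axis, with circles for replicate 1, squares for replicate 2 and lines for the mean of 2 libraries. TXNIP lies at 231 and 233 CPM in siNTC and at 10.6 to 21.8 CPM in the siTAZ libraries, while the other alpha-arrestins and MLXIP differ less from siNTC.

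Thus 6 of the 7 genes passed the filter on low counts and were in the fit. With siTAZ #1, 2 of these 6 were lower at an FDR under 0.05 (TXNIP and ARRDC4) and 0 were higher, beside 9.78% of all genes tested called lower and 10.8% called higher. With siTAZ #2, 1 was lower (TXNIP) and 0 were higher, beside 14.4% and 14.1%. In siTAZ #1 against siTAZ #2, 3 were lower (TXNIP, ARRDC4 and MLXIP) and 0 were higher, beside 13.4% and 15.2%. The median log2 fold change of the 6 genes was −0.42 with siTAZ #1 and −0.44 with siTAZ #2, beside 0.02 and 0.01 for all genes tested. The comparisons of the siRNAs with siNTC share the siNTC libraries. When the genes between RANGAP1 and the far end of Y were kept out of the fit, 4 of the 6 passed with siTAZ #1 and 3 with siTAZ #2. The share of all genes that passed in that fit is not given here, so nothing about the members is read from these counts. When siNTC replicate 1 or 2 was left out, ARRDC4 no longer passed with siTAZ #1 (log2 −2.23 and −2.21), and TXNIP alone remained. Between the siRNAs, ARRDC4 did not pass without siNTC replicate 1 or 2 (−1.62 in both) or siTAZ #2 replicate 1 (−1.06), and MLXIP did not without siTAZ #2 replicate 2 (−0.73).

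**Figure D2:**
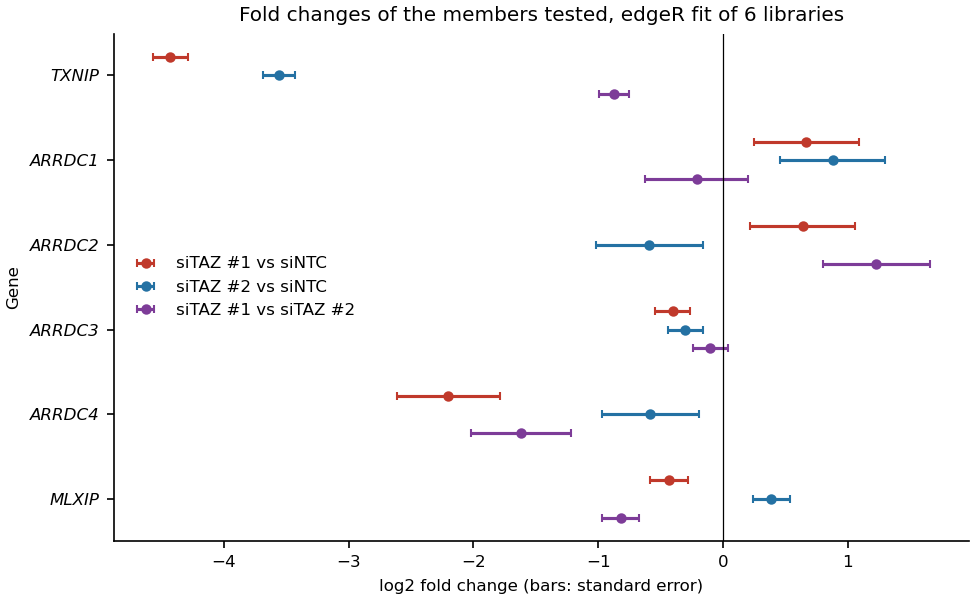
Log2 fold changes (x axis) of the 6 genes tested (y axis), as points with their standard errors as bars, for siTAZ #1 and siTAZ #2 against siNTC and for siTAZ #1 against siTAZ #2. TXNIP lies at −4.43 and −3.56 against siNTC, ARRDC4 at −2.20 and −0.58, and the other 4 genes between −0.59 and 0.88.

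To compare levels between genes, CPM was divided by the length of the transcript in kb. For the members this was the canonical transcript, except for MLXIP, where the longest was used (8427 bases). The place of MLXIP among the members therefore rests on another basis. In siNTC, TXNIP had 80.2 ± 0.56 CPM per kb (SD, n = 2), above 93.6% of the 13400 genes with a length, followed by ARRDC3 with 15.2 ± 0.54 and MLXIP with 9.70 ± 1.81. ARRDC4 (5.07 ± 0.06), ARRDC2 (4.20 ± 1.94) and ARRDC1 (4.10 ± 2.52) were next, and their libraries overlapped in this order. MLXIPL was lowest with 0.068 ± 0.014 CPM per kb. With siTAZ #1, ARRDC3 was highest at 11.5 ± 0.89 CPM per kb, and TXNIP, at 3.71 ± 0.08, was below MLXIP, ARRDC2 and ARRDC1 and above ARRDC4 at 1.09 ± 0.41. With siTAZ #2, MLXIP (12.7 ± 0.95) and ARRDC3 (12.3 ± 1.93) overlapped as the highest, and TXNIP had 6.79 ± 1.06, with libraries that overlapped those of ARRDC1. TXNIP thus went from the highest of the 7 in siNTC to the fifth with siTAZ #1 and the fourth with siTAZ #2.

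The genes whose pattern was most like that of TXNIP were sought among the 9872 other tested genes with a mean of at least 10 CPM, by the root mean square difference of log2 CPM over the 6 libraries, each gene centred on its own siNTC mean. The closest was IGFBP3, a binding protein of insulin-like growth factors, with a difference of 0.22. It had 310 and 344 CPM in siNTC, 14.6 and 17.1 with siTAZ #1, and 33.5 and 27.0 with siTAZ #2. The next were PPAP2B, a lipid phosphate phosphatase (0.97), IL6R, the interleukin-6 receptor (1.34), ADAMTS15, a matrix protease (1.36), and GFRA1, a receptor of the GDNF family (1.47). PPAP2B and IL6R, unlike TXNIP and IGFBP3, were lower with siTAZ #2 than with siTAZ #1. WWTR1 itself took place 10 (1.71) and ARRDC4 place 48 (2.14), while ARRDC3, MLXIP and ARRDC2 were in places 2025, 4748 and 6849. ARRDC1 was below the minimum level. All these genes share the 6 libraries and the siNTC baseline, and the order depends on the measure: by Pearson's r, 0 of these 5 genes were among the 5 highest, and IGFBP3 was in place 9 with r = 0.994 over 6 libraries.

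**Figure D3:**
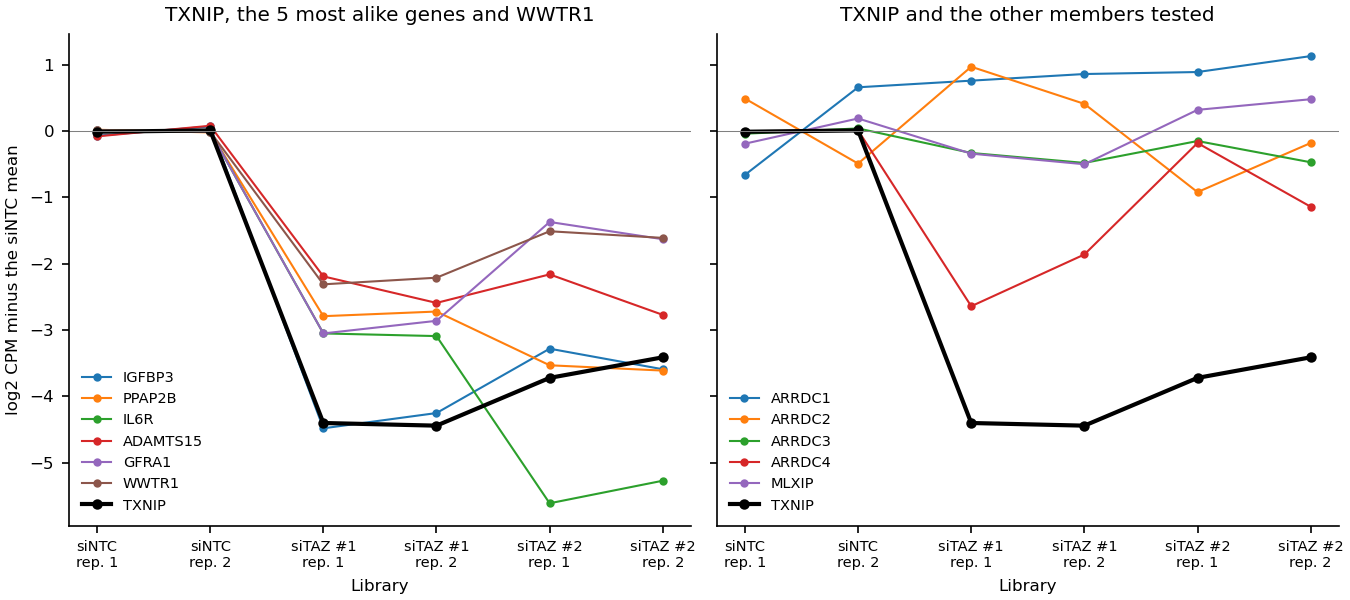
Log2 CPM minus the gene's own siNTC mean (y axis) in each of the 6 libraries (x axis) for TXNIP with the 5 most alike genes and WWTR1 (left) and with the other members tested (right). The line of IGFBP3 runs beside that of TXNIP, that of ARRDC4 follows it partly in the siTAZ #1 libraries, and those of ARRDC1, ARRDC2, ARRDC3 and MLXIP stay nearer to 0.

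Other genes of the pathway were taken from 10 lists with 112 genes, of which 96 were tested. With siTAZ #1, 15 of the 96 were lower (15.6%) and 11 were higher (11.5%), beside 9.78% and 10.8% of all genes tested. With siTAZ #2, 20 were lower (20.8%) and 18 were higher (18.8%), beside 14.4% and 14.1%. In siTAZ #1 against siTAZ #2, 24 were lower (25.0%) and 17 higher (17.7%), beside 13.4% and 15.2%. The same shares of all genes are the background of the counts of each list that follow, and nothing particular to a list is read from them. Without siTAZ #1 replicate 2, 28 genes passed with siTAZ #1, but without siNTC replicate 1 or 2 only 5 and 7 did, and with siTAZ #2 then 13 and 14 in place of 38. Of the 59 calls of list genes against siNTC named in the following paragraphs, 17 remained in every alternative that gave a value. The other 42 were lost in some, and all 42 were lost with siNTC replicate 1 or siNTC replicate 2 left out. Leaving out a library leaves 1 in its group and changes the spread that the fit shares over the 3 groups. A call can thus be lost where the fold change hardly moves, also in a comparison that does not use the group with 1 library. With siTAZ #1, SLC2A1 was at −0.67 and −0.73 without siNTC replicate 1 or 2, beside −0.69. PDK4, which moved more, was at 2.83 and 4.11, beside 3.35. FDR values are those of edgeR's quasi-likelihood test, and log2 fold changes are given with their SE (n = 2 per group). Genes given without an SE, PDK4 aside, were chosen after their values were seen.

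**Figure D4:**
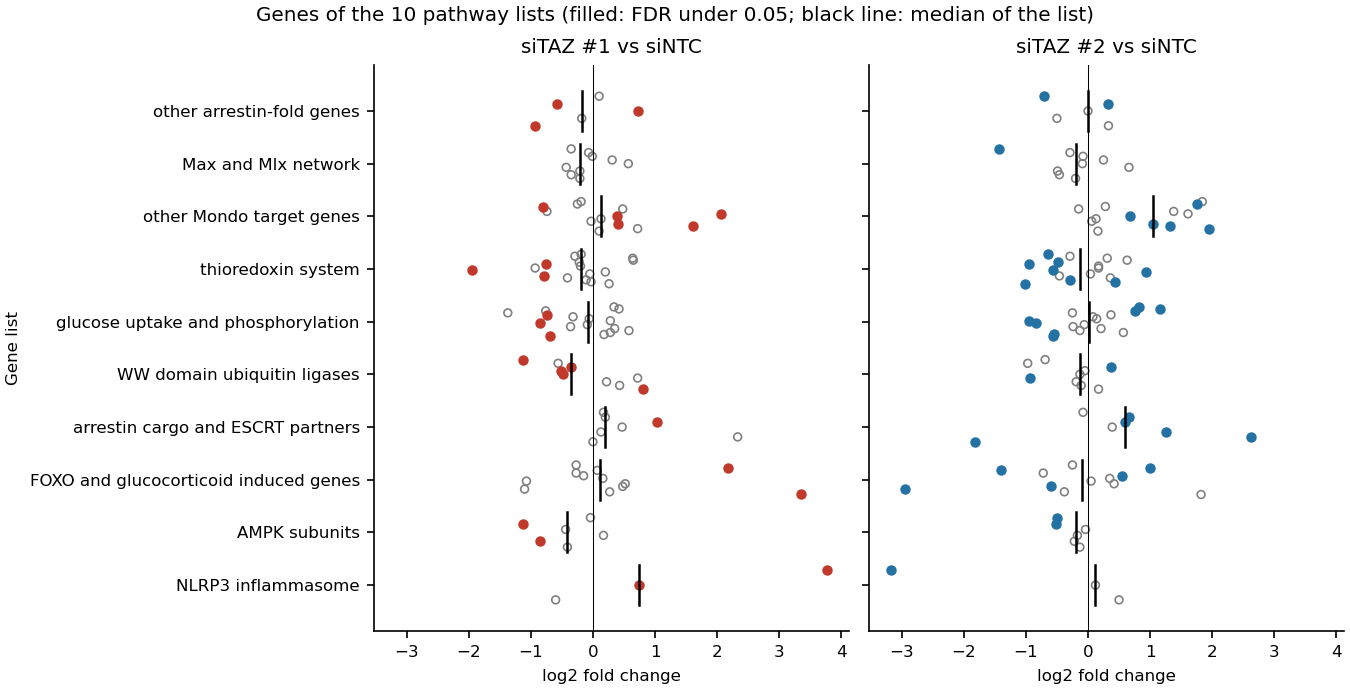
Log2 fold change against siNTC (x axis) of each tested gene of the 10 lists (y axis) with siTAZ #1 (left) and siTAZ #2 (right), filled where the FDR was under 0.05, with the median of each list as a black line. Genes of most lists lie on both sides of 0, and those of the Mondo targets have medians of 0.13 with siTAZ #1 and 1.04 with siTAZ #2.

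Of the 9 genes of the Max and Mlx network, the bHLH leucine zipper proteins around MondoA, 0 changed with siTAZ #1 and 1 fell with siTAZ #2, with medians of −0.21 and −0.20. That gene was MYC, with 64.0 and 63.5 CPM in siNTC, 48.1 and 51.6 with siTAZ #1, and 27.8 and 19.6 with siTAZ #2 (log2 −1.43 ± 0.19, FDR 0.0040). MLX, the partner of MondoA, was chosen after its values were seen: its level was 79.8 and 76.1 CPM in siNTC, 75.8 and 59.2 with siTAZ #1, and 60.0 and 75.3 with siTAZ #2. The MLX groups lay close together, at −0.21 and −0.20 on the log2 scale (FDR 0.42 and 0.41).

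Of 13 tested genes of the other Mondo targets, 4 rose and 1 fell with siTAZ #1, and 5 rose and 0 fell with siTAZ #2, with medians of 0.13 and 1.04 beside 0.02 and 0.01 for all genes. In contrast to TXNIP, ACLY, which makes cytosolic acetyl-CoA, rose from 161 and 166 CPM in siNTC, reaching 538 and 460 with siTAZ #1 and 411 and 406 with siTAZ #2. Its log2 fold change was 1.61 ± 0.10 (FDR 0.00084) and 1.32 ± 0.10 (FDR 0.00088). FASN, the fatty acid synthase, had 151 and 156 CPM in siNTC, 209 and 198 with siTAZ #1, and 312 and 321 with siTAZ #2, and rose by 0.40 ± 0.07 (FDR 0.016) and 1.04 ± 0.08 (FDR 0.00082). With siNTC replicate 1 or 2 left out, FASN did not pass with siTAZ #1 (FDR 0.14 and 0.12). ACACB (log2 1.95) and BHLHE40 (1.75) also rose with siTAZ #2, and these calls remained in every alternative. KLF10 passed with siTAZ #2 (0.67, FDR 0.0060, but 0.061 without siNTC replicate 1) and barely with siTAZ #1 (0.38, FDR 0.046). RGS16 (2.06, FDR 0.039) and DAK (−0.80, FDR 0.040) passed with siTAZ #1. With siTAZ #1, KLF10, RGS16 and DAK were each lost without either siNTC or either siTAZ #2 library (FDR 0.074 to 0.24), KLF10 also without siTAZ #1 replicate 2 (0.11) and RGS16 without either siTAZ #1 library (0.059 and 0.13). ACLY and FASN are also known as genes of fatty acid synthesis under the control of SREBP factors.

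Of the 16 genes of the thioredoxin system, which reduces protein disulfides and is bound by TXNIP, 3 fell and 0 rose with siTAZ #1, and 6 fell and 2 rose with siTAZ #2, with medians of −0.20 and −0.12. PRDX3, the mitochondrial peroxiredoxin, fell from 156 and 162 CPM in siNTC to 46.7 and 36.2 with siTAZ #1 (log2 −1.94 ± 0.17, FDR 0.0018), and less with siTAZ #2, to 120 and 95.9 (−0.56 ± 0.16, FDR 0.048). PRDX6 had 530.0 and 506 CPM in siNTC, 308 and 308 with siTAZ #1, and 285 and 253 with siTAZ #2. It fell by 0.75 ± 0.09 (FDR 0.0042) and 0.95 ± 0.09 (FDR 0.0015). PRDX2 rose with siTAZ #2 (0.94 ± 0.09, FDR 0.0018) and was at 0.20 ± 0.09 with siTAZ #1 (FDR 0.18). TXN, the thioredoxin that TXNIP binds, and its reductase TXNRD1 were among those lower with siTAZ #2 (log2 −1.02, FDR 0.018, and −0.29, FDR 0.033). TXN was lost without siNTC replicate 1 or 2 (FDR 0.096 and 0.083) or siTAZ #2 replicate 2 (0.073), and TXNRD1 without either siNTC library (0.19 and 0.12) or siTAZ #2 library (0.13 and 0.12). With siNTC replicate 1 left out, PRDX6 did not pass with siTAZ #1 (FDR 0.054), nor did PRDX3 with siTAZ #2 without either siNTC library (0.16 and 0.19) or siTAZ #2 library (0.068 and 0.19).

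Of 16 tested genes of glucose uptake and phosphorylation, 3 fell and 0 rose with siTAZ #1, and 4 fell and 3 rose with siTAZ #2, with medians of −0.08 and 0.01. SLC2A1, the transporter GLUT1 that TXNIP is known to remove from the surface, had 312 and 297 CPM in siNTC, 216 and 162 with siTAZ #1, and 193 and 219 with siTAZ #2. It fell by 0.69 ± 0.15 (FDR 0.028) and 0.56 ± 0.15 (FDR 0.040). These calls were lost without siNTC replicate 1 (FDR 0.15 and 0.17), siNTC replicate 2 (0.13 and 0.14), siTAZ #2 replicate 1 (0.056 and 0.18) or siTAZ #2 replicate 2 (0.057 and 0.10). PGM1, a phosphoglucomutase, fell with siTAZ #1 (−0.74 ± 0.13, FDR 0.013) and was at 0.37 ± 0.13 with siTAZ #2 (FDR 0.078). Its call was lost without siNTC replicate 1 or 2 (FDR 0.077 and 0.10). With siTAZ #2, ADPGK, the ADP-dependent glucokinase, fell from 86.2 and 83.4 to 44.5 and 43.4 CPM (−0.95 ± 0.10, FDR 0.0024), and PFKFB3, which makes fructose 2,6-bisphosphate, rose from 70.1 and 67.0 to 135 and 170.0 CPM (1.16 ± 0.14, FDR 0.0033). HK2 was lower with both siRNAs (log2 −0.85 and −0.84), SLC2A3 was lower (−0.55) and PFKFB2 and PFKFB4 were higher (0.75 and 0.82) with siTAZ #2. Without siNTC replicate 1 or 2, HK2 was called with neither siTAZ #1 (FDR 0.11 and 0.18) nor siTAZ #2 (0.086 and 0.14), and with siTAZ #2 it was also lost without siTAZ #2 replicate 2 (0.11). SLC2A3 was lost without siNTC replicate 2 (0.056), and PFKFB2 (0.13 to 0.20) and PFKFB4 (0.055 to 0.080) without any 1 siNTC or siTAZ #2 library.

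Of the 9 WW domain ubiquitin ligases, which alpha-arrestins bind through PPxY motifs, 4 fell and 1 rose with siTAZ #1, and 1 fell and 1 rose with siTAZ #2, with medians of −0.36 and −0.13. NEDD4 rose from 77.7 and 94.6 to 137 and 165 CPM with siTAZ #1 (0.81 ± 0.14, FDR 0.015), and SMURF1 fell from 85.3 and 92.8 to 65.3 and 60.0 CPM (−0.51 ± 0.10, FDR 0.022). SMURF2 fell with siTAZ #1 (−0.36 ± 0.09, FDR 0.040) and rose with siTAZ #2 (0.37 ± 0.09, FDR 0.029), and WWP1 fell with siTAZ #2 from 21.7 and 20.3 to 12.5 and 9.54 CPM (−0.93 ± 0.23, FDR 0.031). Without siNTC replicate 1, these 5 calls had an FDR of 0.11, 0.096, 0.20, 0.13 and 0.13 in this order. Without siNTC replicate 2, the FDR was 0.061, 0.15, 0.14, 0.19 and 0.11, so that none of these 5 calls held with 1 siNTC library. The calls of SMURF2 and WWP1 with siTAZ #2 were also lost without siTAZ #2 replicate 1 (FDR 0.12 and 0.065) or 2 (0.12 and 0.13), and that of SMURF2 with siTAZ #1 without siTAZ #1 replicate 1 (0.065) or siTAZ #2 replicate 1 (0.080) or 2 (0.072). WWP2 (log2 −0.48) and HECW2 (−1.12) were the other ligases lower with siTAZ #1. Both were lost without siNTC replicate 1 (FDR 0.18 and 0.11) or 2 (0.21 and 0.14), and WWP2 also without siTAZ #1 replicate 2 (0.088) or siTAZ #2 replicate 1 (0.092) or 2 (0.089).

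Of the 7 cargo proteins and ESCRT partners of alpha-arrestins, 1 rose with siTAZ #1 and 4 rose with siTAZ #2, with medians of 0.20 and 0.60. SLC11A2, an iron transporter, rose from 34.5 and 32.1 CPM, reaching 69.6 and 66.7 with siTAZ #1 (1.03 ± 0.14, FDR 0.0069) and 56.3 and 44.8 with siTAZ #2 (0.60 ± 0.14, FDR 0.028). F2R, the thrombin receptor PAR1, rose with siTAZ #2 from 422 and 412 to 996 and 984 CPM (1.25 ± 0.07, FDR 0.00063) and was at 456 and 456 CPM with siTAZ #1 (0.13 ± 0.07, FDR 0.24). Without siNTC replicate 1 or 2, SLC11A2 was no longer called with siTAZ #1 (FDR 0.065 and 0.075) or siTAZ #2 (0.12 and 0.17). With siTAZ #2, the same held without siTAZ #2 replicate 1 (0.12). ITGB4 (1 and 3 counts in siNTC, 19 and 12 with siTAZ #2, FDR 0.048) and TSG101 (0.66, FDR 0.017) also rose with siTAZ #2. ITGB4 was lost with any 1 library left out (FDR 0.052 to 0.22), and TSG101 without any 1 siNTC or siTAZ #2 library (0.060 to 0.12).

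Of 5 tested genes with an arrestin fold besides the members, 2 fell and 1 rose with siTAZ #1, and 1 fell and 1 rose with siTAZ #2, with medians of −0.18 and 0.00. ARRB1, beta-arrestin 1, fell with siTAZ #1 from 69.5 and 56.2 to 34.1 and 31.8 CPM (−0.93 ± 0.14, FDR 0.0097) and had 73.9 and 84.0 CPM with siTAZ #2 (0.33 ± 0.14, FDR 0.14). VPS26B, a retromer subunit, fell with siTAZ #1 (−0.58 ± 0.08, FDR 0.0078) and rose with siTAZ #2 (0.32 ± 0.08, FDR 0.037), while its relative DSCR3 fell with siTAZ #2 (−0.71 ± 0.13, FDR 0.012). Without siNTC replicate 1, the FDR was 0.074 for ARRB1, 0.073 and 0.19 for VPS26B, and 0.086 for DSCR3, and without siNTC replicate 2 it was 0.070 and 0.19 for VPS26B and 0.052 for DSCR3. With siTAZ #2, VPS26B and DSCR3 were also lost without siTAZ #2 replicate 1 (0.090 and 0.076) or 2 (0.19 and 0.053). VPS26A was the gene that rose with siTAZ #1 (log2 0.73), and it was lost without siNTC replicate 1 (FDR 0.25) or 2 (0.14) or siTAZ #2 replicate 1 (0.088) or 2 (0.089).

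Of 12 tested genes known to be induced by FOXO factors or by glucocorticoids, as TXNIP is, 2 rose and 0 fell with siTAZ #1, and 2 rose and 3 fell with siTAZ #2, with medians of 0.11 and −0.10. CCNG2, cyclin G2, rose from 8.24 and 10.3 CPM, reaching 39.6 and 44.4 with siTAZ #1 (2.18 ± 0.17, FDR 0.0013) and 18.4 and 18.9 with siTAZ #2 (1.00 ± 0.16, FDR 0.0082). PDK4, a kinase of pyruvate dehydrogenase, had 2 and 5 counts in siNTC and 25 and 96 with siTAZ #1, and rose (FDR 0.034). CDKN1B, the cell cycle inhibitor p27, fell with siTAZ #2 from 95.9 and 85.6 to 35.5 and 33.0 CPM (−1.40 ± 0.16, FDR 0.0026) and had 81.9 and 108 CPM with siTAZ #1. CCNG2 did not pass with siTAZ #2 when siNTC replicate 1 was left out (FDR 0.059) or siTAZ #2 replicate 2 (0.053), nor did PDK4 with siTAZ #1 without siNTC replicate 1 (0.18), siNTC replicate 2 (0.13) or siTAZ #1 replicate 2 (0.061). SESN1 (log2 0.55), KLF15 (−2.94) and FKBP5 (−0.59) were the others called with siTAZ #2. Each of these 3 calls was lost without any 1 siNTC or siTAZ #2 library, at an FDR of 0.092 to 0.20 for SESN1, 0.055 to 0.15 for KLF15 and 0.099 to 0.20 for FKBP5.

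Of 6 tested subunits of AMPK, the kinase that phosphorylates TXNIP, 2 fell with each siRNA and 0 rose, with medians of −0.43 and −0.19. PRKAG1 fell from 96.5 and 107 CPM, reaching 46.9 and 46.3 with siTAZ #1 (−1.13 ± 0.11, FDR 0.0028) and 66.7 and 76.5 with siTAZ #2 (−0.51 ± 0.11, FDR 0.021). PRKAA2 fell with siTAZ #1 (−0.85 ± 0.18, FDR 0.025) and PRKAG2 with siTAZ #2 (−0.50 ± 0.13, FDR 0.038). The siTAZ #2 call of PRKAG1 was lost without siNTC replicate 1 (FDR 0.072) or 2 (0.13) or siTAZ #2 replicate 1 (0.11). PRKAA2 was lost without any 1 library but siTAZ #1 replicate 1 (FDR 0.054 to 0.12), and PRKAG2 without either siNTC library (0.18 and 0.079) or siTAZ #2 library (0.17 and 0.10).

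Of 3 tested genes of the NLRP3 inflammasome, which TXNIP is known to bind, 2 rose and 0 fell with siTAZ #1, and 1 fell and 0 rose with siTAZ #2. IL1B had 9 and 15 counts in siNTC, 173 and 318 with siTAZ #1, and 2 and 1 with siTAZ #2. It rose with siTAZ #1 (3.77 ± 0.34, FDR 0.0021) and fell with siTAZ #2 (FDR 0.0078), where 3 counts in all stood against 24, a ratio of 0.104 (exact binomial 95% interval 0.0201 to 0.343, counting error only). CASP1 rose from 27.7 and 26.4 to 44.1 and 46.1 CPM with siTAZ #1 (0.74 ± 0.11, FDR 0.0091), a call lost without siNTC replicate 1 or 2 (0.079 and 0.089). NLRP3 did not pass the filter on low counts.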

How the data were processed

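RNA of 6 HFL-1 libraries, 2 in each of 3 groups, was sequenced on an Ion Proton. The authors mapped reads with TMAP on hg19, counted them with HTSeq 0.6.1 and deposited the raw count of each gene, not normalized. The strand setting and counting mode are not given in the sources used here. Of 23368 entries, 13 were dates rather than symbols (0.0458% to 0.0506% of a library's counts) and were left out. Library totals ranged from 15648055 to 32078188, and no replicates agreed within sampling noise (mean chi-square per gene 5.36 to 83.7).

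Counts were filtered with filterByExpr by group, scaled by TMM and fitted together over the 6 libraries with edgeR 4.0.16 in R 4.3.3, using its quasi-likelihood test. The p-values were adjusted after Benjamini and Hochberg over 14053 genes, with a threshold of FDR 0.05. The SE is the size of the log2 fold change divided by the square root of F. The spread is shared over the 3 groups, because 2 libraries against 2 cannot reach a p under 0.05 by permutation. The test was also run on simulated data, drawn without the genes between RANGAP1 and the far end of Y, which the fit of the 6 libraries kept. No result here rests on that run. The members and the gene lists were chosen with earlier results of these data known. The genes named are the members, WWTR1, from each list and for each siRNA the 2 lowest by FDR of the genes under 0.05, and the 5 genes most like TXNIP, with other list genes added after their values were seen. Alternatives were DESeq2 1.42.0, RLE and library-total scaling, other filters, fits and the exact test of edgeR on 4 libraries, a replicate block, thinned libraries, dropping the 575 tested genes between RANGAP1 and the far end of Y, leaving out each library, and an FDR of 0.1. GRCh37 positions were found for 21434 symbols, 1878 through a synonym, and all 7 members matched the RefSeq promoter table (GRCh38.p14). CACGNG alone was added as a motif after the data were seen. Protein sequences were not used here, and the result of 1 list gene that met the rule is not reported here.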

Additional observations from a re-analysis of the deposited data

Results flagged for a closer look

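A gene is listed here where edgeR's test of siTAZ #1 against siTAZ #2 gave an FDR under 0.05, that is, where the effects of the 2 siRNAs on it differed. This was so for 41 of 61 tested genes, beside 13.4% of all genes tested called lower and 15.2% called higher in this comparison. Of the 41, 3 are members, for which the difference is a description. Many of the 61 were named for their FDR against siNTC in this same fit, or after their values were seen. Their share is therefore not comparable with that of all genes, and nothing about the pathway is read from it. The 61 are the members, WWTR1, the 5 genes most like TXNIP, the list genes described with their results, and KCTD5 and RAN, while cell type markers were not screened. With 1 library left out, 25 of the 41 differences kept an FDR under 0.05 each time and 16 did not. Values are log2 differences, siTAZ #1 minus siTAZ #2.

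TXNIP differed by −0.87, ARRDC4 by −1.62 and MLXIP by −0.82. WWTR1 itself, the targeted gene, differed by −0.70, being lower with siTAZ #1. For TXNIP and ARRDC4 both siRNAs gave values below siNTC, while for MLXIP they lay on either side of it. Of the 5 genes most like TXNIP, IGFBP3 differed by −0.93, GFRA1 by −1.46, PPAP2B by 0.82 and IL6R by 2.48.

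Among the list genes lower with siTAZ #1 than with siTAZ #2 were VPS26B (−0.90), ARRB1 (−1.26), FASN (−0.64), PRDX3 (−1.38), PRDX2 (−0.74), PGM1 (−1.11), PFKFB3 (−0.74), SMURF1 (−0.46), SMURF2 (−0.72), DAK (−1.08), ACACB (−1.23), BHLHE40 (−2.00), PFKFB2 (−1.52), TSG101 (−0.46), SESN1 (−0.70), F2R (−1.12), PRKAG1 (−0.62) and PRKAA2 (−0.63). KCTD5, whose promoter holds the paired arrangement, differed by −1.02. Those higher with siTAZ #1 were DSCR3 (0.81), MYC (1.07), ADPGK (1.23), NEDD4 (0.64), WWP1 (1.65), TXN (1.28), SLC2A3 (0.73), VPS26A (0.72), FKBP5 (1.07), CCNG2 (1.17), CDKN1B (1.47), PRKAG2 (0.46), CASP1 (0.61) and IL1B (6.94). For IL1B, where siTAZ #2 held 3 counts in all against 491, the ratio was 129 with an exact binomial 95% interval of 43.9 to 628. The differences lost without some 1 library were those of ARRDC4, MLXIP, DSCR3, PFKFB3, NEDD4, SMURF1, PRKAG1, PRKAA2, PRKAG2, CASP1, DAK, ACACB, TSG101, VPS26A, SESN1 and FKBP5. Opposite calls against siNTC were made for VPS26B, SMURF2 and IL1B.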

How the results depend on the processing

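Over the 16 alternatives, the log2 fold change of TXNIP against siNTC was −4.46 to −4.40 with siTAZ #1 and −3.76 to −3.41 with siTAZ #2, a description of a gene chosen by these values. Over the 18 fold changes of the members and 288 alternative values, 251 kept their direction and side of the threshold, 11 lost it, 25 gained it and 1 changed sign. With siTAZ #1, 4 members in place of 2 were called by DESeq2 and without the genes between RANGAP1 and the far end of Y, and 1 to 4 with 1 library left out. With siTAZ #2, 3 in place of 1 were called by DESeq2, in the fit of 4 libraries and without those genes, 5 by the exact test, and 1 to 3 with 1 library left out. Between the siRNAs, the exact test called 0 in place of 3, and 2 to 4 were called with 1 library left out. The list genes called with siTAZ #1 were 26, but 17 in the fit of 4 libraries, 7 by the exact test and 5 to 39 with 1 library left out. With siTAZ #2 they were 38, and 13 to 48 with 1 library left out. Between the siRNAs they were 41, but 16 by the exact test and 20 to 50 with 1 library left out. By Pearson's r, 0 of the 5 genes most like TXNIP remained among the highest 5. With 1 library left out, the sign turned for ARRDC3 between the siRNAs (−0.24 to 0.07), for DSCR3 (−0.03 to 0.21), CDKN1B (−0.15 to 0.26) and PRKAG2 (−0.16 to 0.07) with siTAZ #1, and for SMURF1 with siTAZ #2 (−0.14 to 0.01). The causes were not tested. The share of all genes called under each alternative is not given here. The counts of members and list genes called under the alternatives are therefore not read as results about these genes.

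The replicate numbers were not found to pair the samples: the differences between replicates 1 and 2 correlated over genes at −0.01 between siNTC and siTAZ #1, 0.01 between siNTC and siTAZ #2 and −0.18 between the siRNAs. With a replicate block, 14 list genes were called with siTAZ #1, 25 with siTAZ #2 and 29 between the siRNAs, and 2, 1 and 2 members. With 2 libraries per group, low counts such as those of MLXIPL limit what can be seen.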
